A study of Mus musculus with 6 samples.

Results

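The cytochrome P450 genes of families 1, 2 and 3 encode the haem enzymes of the endoplasmic reticulum that carry out most oxidation of drugs, steroids and other foreign or lipid-soluble compounds in the liver. The genes described here are the protein-coding mouse genes whose symbol starts with Cyp1, Cyp2 or Cyp3 followed by a subfamily letter and a number, and which had at least 60 read counts summed over 6 libraries. They numbered 47, in 14 subfamilies, out of 60 protein-coding genes with such symbols and 56350 genes in the table. The other 13 fell below the minimum, 6 of them with no count at all. The lowest member had 64 counts and the highest gene left out had 51.

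Liver RNA was measured by bulk RNA sequencing of polyA RNA in 3 libraries labelled Atg14 HepKO (HepKO) and 3 labelled wild-type (WT), to see how liver expression differs when Atg14 is targeted. The Atg14 protein directs a class of lipid kinase to the membranes where autophagosomes form. The labels name no further allele or treatment in either group. The sources used here do not give the promoter that drives the deletion, the strain, age, sex, diet or feeding state. Nor is it stated whether the 3 libraries of each genotype came from different mice, so p-values reflect the spread among these libraries, which may in part be technical.

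P450 enzymes insert 1 oxygen atom into a substrate with electrons passed from NADPH by cytochrome P450 reductase and, for some reactions, by cytochrome b5. Their genes stand in clusters of close copies, and many are switched on by receptors that sense foreign compounds: AhR for Cyp1a, CAR and PXR for Cyp2b, Cyp2c and Cyp3a. In mouse liver several are made mostly around the central vein, and several others differ between the sexes under the control of growth hormone.

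Total counts were 33145684 to 48951937 per library. Levels are given as CPM, read counts relative to the library total, after scaling with TMM (trimmed mean of M-values) factors of 1.19 to 1.21 in HepKO and 0.824 to 0.860 in WT. Atg14 had 5.66, 8.45 and 7.95 CPM in HepKO replicates 1 to 3, against 20.9, 22.2 and 21.0 CPM in WT, and was lower in HepKO (log2 fold change -1.54 ± 0.16, adjusted p = 4.69e-04, edgeR's quasi-likelihood test). HepKO replicate 1 stood apart in its sex-linked genes. Xist, the RNA that silences an X chromosome in females, had 523 CPM in HepKO replicate 1, 0.490 and 0.381 CPM in HepKO replicates 2 and 3, and 0.0676 to 0.195 CPM in WT. Each of the Y-linked genes Ddx3y, Eif2s3y, Kdm5d and Uty was at most 0.103 CPM in HepKO replicate 1 and at least 14.5 CPM in every other library. Genotype and this difference cannot be told apart in that library, and results are also given without HepKO replicate 1.

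More P450 genes were lower than higher in HepKO livers, and the most abundant ones changed in opposite directions. Of 45 members tested, 20 were called (44.4%), against 38.2% of all 16051 genes tested. Of the 45, 15 fell (33.3%), against 18.7% of all genes, and 5 rose (11.1%), against 19.5% of all genes, at a Benjamini-Hochberg adjusted p under 0.05 over all tested genes. The 15 that fell were Cyp2c29, Cyp2c37, Cyp2c38, Cyp2c50, Cyp2c54, Cyp2d10, Cyp2d22, Cyp2d26, Cyp2d40, Cyp2e1, Cyp2j5, Cyp2j6, Cyp2j9, Cyp3a11 and Cyp3a25. The 5 that rose were Cyp1a1, Cyp1a2, Cyp2a4, Cyp2a5 and Cyp2d12. Among the members, 11 fell by 2-fold or more (24.4%, against 5.74% of all genes) and 5 rose by 2-fold or more (11.1%, against 12.9%). All 3 HepKO libraries lay below all 3 WT libraries for 18 members and above them for 5, while 22 overlapped; over all genes these shares were 26.4% below and 27.1% above.

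The median log2 fold change, HepKO over WT, was -0.65 over the 45 members and 0.01 over all genes. An unadjusted p under 0.05 was found for 2 of the 25 members not called. The members Cyp3a41a and Cyp3a16 were too low in most libraries to be tested. Without HepKO replicate 1 the number of members that fell was 27 (60% of 45, against 17.5% of 16505 genes), 12 of them not called with all libraries, and it held all 15 named above. Without that library 4 rose (8.89%, against 16.3% of all genes), since Cyp1a1 no longer passed (adjusted p = 0.0779), and the members' median was -0.94, the same with Cyp2b13, which had no counts in HepKO replicates 2 and 3, set at its bound.

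These values depend on the scaling. With library totals and no scaling factors, the median of all genes was 0.52, 13 members fell (against 5.84% of all genes) and 6 rose (against 46.4%), and the members' median was -0.14. Cyp2j6 and Cyp2j9 were then not called, Cyp2j6 with a log2 fold change of 0.05, and Cyp2c70 was called higher. The other 26 tested P450 genes of families above 3 had 9 lower, 4 higher and a median of -0.52 under TMM. The 45 members had 15 lower, 5 higher and a median of -0.65, and 18.7% of all genes were lower and 19.5% higher. More lower than higher genes were thus also found outside the families described here.

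**Figure D1:**
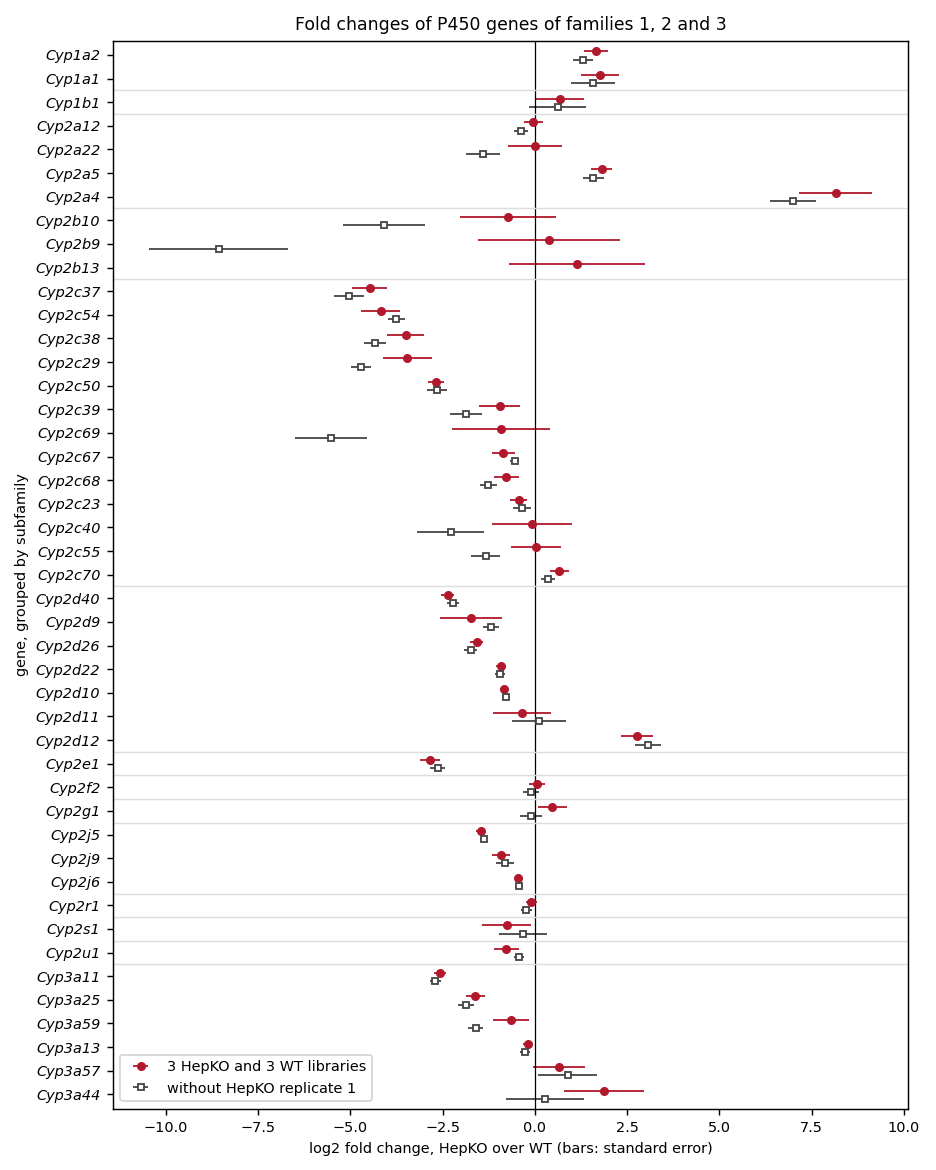
Log2 fold changes, HepKO over WT, of the 45 tested P450 genes by subfamily, with standard errors; filled circles use all 6 libraries and open squares leave out HepKO replicate 1. Cyp2a4 stands highest at 8.15 and Cyp2c37 lowest at -4.47 with all libraries; the open square of Cyp2b13 is not drawn, since it had no counts in HepKO replicates 2 and 3.

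The make-up of the P450 transcript pool differed between the groups. The 47 genes summed to 18630, 12748 and 12935 CPM in HepKO replicates 1 to 3, against 25640, 27347 and 33931 CPM in WT. Each HepKO library was below each WT library, with means of 14771 ± 3343 CPM in HepKO and 28973 ± 4378 CPM in WT (SD, n = 3 each), a log2 ratio of -0.97. No test was made on this sum. With library totals the log2 ratio was -0.46, and the genes took 2.21%, 1.53% and 1.54% of raw counts in HepKO, against 2.12%, 2.35% and 2.80% in WT, so the groups overlapped on that scale.

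Levels of different genes were compared per kilobase of exon, with all annotated exons of a gene counted (5093 bases for Cyp3a11). On that scale Cyp2e1 alone made up 12.9% ± 5.84 of the pool in HepKO and 48.4% ± 1.65 in WT (SD, n = 3 each). The Cyp2a genes made up 42.9% ± 9.17 in HepKO and 5.94% ± 1.36 in WT. Cyp1a genes held 11.4% ± 1.61 in HepKO and 2.03% ± 0.422 in WT. Cyp2c genes held 9.93% ± 0.579 in HepKO and 14.97% ± 0.523 in WT, and Cyp3a genes held 4.68% ± 0.599 in HepKO and 8.91% ± 0.883 in WT. Cyp2a5 led in every HepKO library, with a mean of 27.3% of the pool. Cyp2e1 (12.9%), Cyp2a4 (12.8%) and Cyp1a2 (11.4%) followed by mean, and their order differed between HepKO libraries. Cyp2a4 took 23.2%, 5.62% and 9.56% in HepKO replicates 1 to 3, and Cyp1a2 took 12.8%, 11.8% and 9.65%. In WT Cyp2e1 led in every library. By mean Cyp2d26 and Cyp3a11 came next with 4.62% each, but the order behind Cyp2e1 differed between WT libraries. The next gene was Cyp2c29 in WT replicate 1 (5.02%) and Cyp2a5 in WT replicates 2 and 3 (5.20% and 4.70%). In CPM, not divided by length, Cyp3a11 came next to Cyp2e1 in WT, with a mean of 2885. The HepKO and WT ranges did not overlap for Cyp1a, Cyp2a, Cyp2c, Cyp2d, Cyp2e, Cyp2f, Cyp2g, Cyp2r or Cyp3a. Cyp2a took 37.0% to 53.4% in HepKO libraries and 4.43% to 7.04% in WT libraries. Cyp2e1 took 6.24% to 17.0% in HepKO and 46.5% to 49.6% in WT. Cyp2f2 took 5.31% to 6.56% in HepKO and 2.82% to 3.47% in WT, although its CPM overlapped between the groups.

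**Figure D2:**
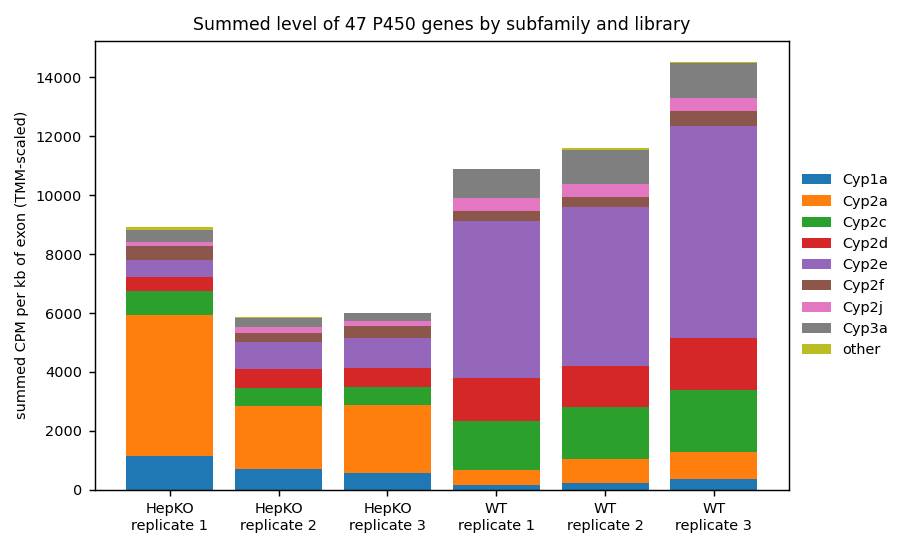
Summed level of the 47 P450 genes in each library, in TMM-scaled CPM per kilobase of exon, stacked by subfamily, with HepKO libraries on the left and WT libraries on the right. Cyp2a (orange) is the widest band in HepKO, at 37.0% to 53.4% of the bar, and Cyp2e (purple) the widest in WT, at 46.5% to 49.6%.

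Family 1 holds the enzymes that oxidise planar aromatic compounds. Cyp1a2, the constitutive liver form that also metabolises caffeine, occupies chromosome 9, 57676937 to 57683703, minus strand (GRCm38, as for all gene positions here). Its levels were 2303, 1388 and 1165 CPM in HepKO replicates 1 to 3, against 353, 473 and 716 CPM in WT. Every HepKO library was above every WT library, and Cyp1a2 rose 3.15-fold (log2 fold change 1.66 ± 0.32, adjusted p = 0.0056, edgeR). Its neighbour Cyp1a1, the form most strongly induced through AhR, stayed low, with 4.05, 2.18 and 3.53 CPM in HepKO and 0.304, 1.39 and 1.14 CPM in WT. Cyp1a1 rose with all libraries (log2 fold change 1.77 ± 0.52, adjusted p = 0.0292), but its call ended without HepKO replicate 1 (0.0779), HepKO replicate 3 (0.0756) or WT replicate 3 (0.0670). Cyp1b1, which acts mainly outside hepatocytes, had 1.52, 2.30 and 0.381 CPM in HepKO and 0.473, 1.25 and 0.878 CPM in WT, and did not pass (adjusted p = 0.446).

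The Cyp2a subfamily held the largest increase. Cyp2a5, the coumarin 7-hydroxylase of mouse liver (chromosome 7, 26835305 to 26843548, plus strand), had 5009, 3508 and 3242 CPM in HepKO, against 691, 1248 and 1415 CPM in WT. The groups did not overlap, and Cyp2a5 rose 3.51-fold (log2 fold change 1.81 ± 0.29, adjusted p = 0.00232). Cyp2a4, a steroid 15α-hydroxylase that is higher in female mouse liver (chromosome 7, 26307169 to 26315088, plus strand), had 3609, 572 and 998 CPM in HepKO, against 3.51, 11.8 and 2.90 CPM in WT. It was low in every WT library and high in all 3 HepKO libraries, most of all in replicate 1. Cyp2a4 rose by a log2 fold change of 8.15 ± 0.99 (adjusted p = 7.78e-04), which was 6.998 without HepKO replicate 1 and 9.10 without WT replicate 2.

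Cyp2a4 and Cyp2a5 are close copies, with 23 differing bases in 1485 coding bases (98.5% identity). A stretch of 60 coding bases from GENCODE M21 is shown because it holds the codon known to decide between steroid and coumarin as substrate. Capitals mark the 4 differing bases, of which 1 lies in that codon.
Cyp2a4 coding: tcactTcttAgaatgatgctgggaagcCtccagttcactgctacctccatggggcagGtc
Cyp2a5 coding: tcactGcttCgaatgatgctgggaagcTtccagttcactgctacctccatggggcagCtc
Of the 75-base windows in their transcripts, 22.1% in Cyp2a4 and 25.5% in Cyp2a5 occur in another gene, so reads falling there cannot be placed in 1 of them. Cyp2a4 stood at 72.0%, 16.3% and 30.8% of the Cyp2a5 level (CPM) in HepKO replicates 1 to 3, against 0.508%, 0.942% and 0.205% in WT. The share moved by library and not in proportion to Cyp2a5.

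Both promoters, from RefSeq (GRCm38.p6), are also alike. The windows run from 250 bases before to 50 after the start on the plus strand, at chr7:26306942-26307241 for Cyp2a4 and chr7:26835089-26835388 for Cyp2a5, and 7 of 301 aligned columns differ (97.7% identity). They are shown because these 2 genes rose by very different amounts. Capitals mark bases that differ or have no partner.
Cyp2a4 promoter: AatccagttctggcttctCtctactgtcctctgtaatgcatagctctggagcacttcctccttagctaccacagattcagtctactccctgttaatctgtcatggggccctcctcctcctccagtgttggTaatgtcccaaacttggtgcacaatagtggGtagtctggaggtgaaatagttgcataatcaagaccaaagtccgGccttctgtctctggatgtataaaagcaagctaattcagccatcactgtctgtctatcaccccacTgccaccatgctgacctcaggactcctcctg
Cyp2a5 promoter: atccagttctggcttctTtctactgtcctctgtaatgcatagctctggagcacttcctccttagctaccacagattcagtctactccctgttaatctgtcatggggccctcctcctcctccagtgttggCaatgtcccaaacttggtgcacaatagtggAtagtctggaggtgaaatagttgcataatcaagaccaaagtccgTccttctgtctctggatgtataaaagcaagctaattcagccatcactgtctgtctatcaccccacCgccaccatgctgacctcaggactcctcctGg
The other Cyp2a members did not pass. Cyp2a12, a steroid hydroxylase, had 902, 494 and 509 CPM in HepKO and 495, 672 and 794 CPM in WT (log2 fold change -0.04 ± 0.27, adjusted p = 0.919). Cyp2a22 had 65.6, 9.74 and 12.2 CPM in HepKO and 12.6, 43.3 and 31.1 CPM in WT. Both were highest among HepKO libraries in replicate 1, and without it Cyp2a22 was called lower (log2 fold change -1.41, adjusted p = 0.0496).

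The Cyp2b genes, the classic targets of CAR, varied most from library to library. Cyp2b9 (chromosome 7, 26173411 to 26210661, plus strand) had 8466, 0 and 8 counts (146, 0 and 0.203 CPM) in HepKO replicates 1 to 3, against 69, 2775 and 1108 counts (2.33, 77.3 and 32.4 CPM) in WT. Cyp2b10 had 21.5, 1.07 and 0.406 CPM in HepKO and 1.89, 9.28 and 27.0 CPM in WT. Cyp2b13 had 781 counts in HepKO replicate 1 and none in HepKO replicates 2 and 3, against 0, 105 and 109 counts in WT. In all 3 genes HepKO replicate 1 was high, HepKO replicates 2 and 3 were near 0, and WT varied many-fold, and none passed with all libraries (adjusted p = 0.667 to 0.897). Without HepKO replicate 1 all 3 were called lower, against 17.5% of all genes. Cyp2b9 then had a log2 fold change of -8.57 ± 1.88 (adjusted p = 0.0124) and Cyp2b10 one of -4.09 ± 1.11 (adjusted p = 0.0271). Cyp2b13 was at least 60.6-fold lower, against a floor of 3 counts over HepKO replicates 2 and 3 (adjusted p = 0.0473), although WT replicate 1 also had none.

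Cyp2c is the largest subfamily, with 13 members on chromosome 19, from 39007019 to 44029208, and its enzymes hydroxylate fatty acids, drugs and steroids. With all libraries 5 fell and none rose, against 18.7% lower and 19.5% higher of all genes. Cyp2c29 (plus strand, 39269405 to 39330713), which makes epoxides of arachidonic acid, had 316, 46.5 and 76.7 CPM in HepKO, against 1674, 1396 and 1751 CPM in WT. It fell 10.98-fold (log2 fold change -3.46 ± 0.67, adjusted p = 0.00536), and the log2 fold change was -4.71 without HepKO replicate 1, its highest HepKO library. Cyp2c50 had 125, 161 and 108 CPM in HepKO, against 648, 841 and 1039 CPM in WT, and fell 6.41-fold (log2 fold change -2.68 ± 0.22, adjusted p = 1.72e-04). Cyp2c37 had 28.8, 16.9 and 7.09 CPM in HepKO, against 318, 410 and 449 CPM in WT, the lowest fold change of all members (22.2-fold lower, log2 fold change -4.47 ± 0.48, adjusted p = 4.72e-04). For all 3 genes the highest HepKO library was far below the lowest WT library.

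Cyp2c54 (log2 fold change -4.18 ± 0.53) and Cyp2c38 (-3.51 ± 0.50, and -4.33 without HepKO replicate 1) fell as well. Cyp2c37, Cyp2c50 and Cyp2c54 share 95.1% to 96.1% of coding bases in pairs, and 13.8% to 17.8% of their 75-base windows occur in another gene. The other 8 members of the subfamily did not pass with all libraries, though most of them also had a log2 fold change below 0. Cyp2c70, which hydroxylates bile acids to muricholic acids in mouse, had 821, 433 and 530 CPM in HepKO and 296, 370 and 465 CPM in WT (log2 fold change 0.66 ± 0.26, adjusted p = 0.0764). Cyp2c23, an arachidonic acid epoxygenase, had a log2 fold change of -0.44 ± 0.23, and Cyp2c67 had -0.86 ± 0.31 (adjusted p = 0.0601). Cyp2c68, Cyp2c40, Cyp2c39, Cyp2c55 and Cyp2c69 lay between -0.96 and 0.02 and did not pass. Without HepKO replicate 1, Cyp2c39, Cyp2c55, Cyp2c67, Cyp2c68 and Cyp2c69 were called lower, 10 of 13 in all, against 17.5% of all genes. Cyp2c40, Cyp2c67, Cyp2c68 and Cyp2c69 share 28.5% to 57.1% of their windows with another gene, mostly among themselves, so their separate counts are uncertain.

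The Cyp2d genes of chromosome 15 (82370527 to 82794294), close to the human drug-metabolising enzyme of that subfamily, had 4 lower and 1 higher of 7. Over all genes 18.7% were lower and 19.5% higher. Cyp2d26 had 412, 296 and 319 CPM in HepKO, against 827, 1042 and 1195 CPM in WT (log2 fold change -1.58 ± 0.18, adjusted p = 6.29e-04). Cyp2d10 had 305, 350 and 367 CPM in HepKO, against 623, 590 and 625 CPM in WT, and fell least of the 4 (log2 fold change -0.85 ± 0.11, adjusted p = 0.00102). Cyp2d40 fell most, with 13.5, 15.2 and 21.8 CPM in HepKO, against 84.8, 86.3 and 88.1 CPM in WT (log2 fold change -2.36 ± 0.18, adjusted p = 1.40e-04). Cyp2d22 held 140 to 145 CPM in HepKO and 234 to 309 CPM in WT (log2 fold change -0.92 ± 0.12). These 4 had no overlap between the groups.

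Cyp2d12 went the other way at a low level, with 3.63, 8.72 and 8.16 CPM in HepKO and 0.710, 0.780 and 1.49 CPM in WT, and rose (log2 fold change 2.77 ± 0.44, adjusted p = 0.00216). Cyp2d9, a testosterone 16α-hydroxylase that is higher in male mouse liver, had 30.2, 642 and 504 CPM in HepKO, against 1357, 963 and 1581 CPM in WT. HepKO replicate 1 was far below the other HepKO libraries, and with it Cyp2d9 did not pass (log2 fold change -1.73 ± 0.84, adjusted p = 0.141). Without it Cyp2d9 was called lower (log2 fold change -1.19 ± 0.22, adjusted p = 0.00677). Cyp2d11 was at most 0.584 CPM in any library and did not pass.

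Cyp2e1 (chromosome 7, 140763739 to 140774987, plus strand), which oxidises ethanol, acetaminophen and ketones, was the most abundant member in WT. It had 1203, 1965 and 2202 CPM in HepKO, against 11522, 11624 and 15541 CPM in WT. The highest HepKO library was far below the lowest WT library, and Cyp2e1 fell 7.204-fold (log2 fold change -2.85 ± 0.26, adjusted p = 2.79e-04). It was -2.64 on that scale when HepKO replicate 1 was left out.

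The single-gene subfamilies differed. Cyp2f2, which activates naphthalene and marks periportal hepatocytes, had 961, 656 and 797 CPM in HepKO and 640, 661 and 1020 CPM in WT, overlapping (log2 fold change 0.06 ± 0.22, adjusted p = 0.862). Cyp2g1, mainly an olfactory enzyme, had 6.16, 2.12 and 2.95 CPM in HepKO and 2.64, 2.37 and 3.10 CPM in WT. Cyp2r1, the vitamin D 25-hydroxylase, had 15.7, 13.4 and 11.2 CPM in HepKO and 13.9, 15.8 and 13.6 CPM in WT (adjusted p = 0.636). None of these 3 passed. Cyp2s1 had 0.0689, 0.245 and 0.330 CPM in HepKO and 0.304, 0.362 and 0.410 CPM in WT, and did not pass. Cyp2u1, a fatty acid hydroxylase, had 8.63, 24.3 and 22.0 CPM in HepKO and 32.1, 26.8 and 34.8 CPM in WT, and was called lower only when HepKO replicate 1 was left out (adjusted p = 0.108 with it and 0.0462 without).

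All 3 Cyp2j members, arachidonic acid epoxygenases on chromosome 4, fell, against 18.7% of all genes. Cyp2j5 had 317, 385 and 377 CPM in HepKO, against 968, 1008 and 1007 CPM in WT, with little spread in either group (log2 fold change -1.47 ± 0.12, adjusted p = 1.65e-04). Cyp2j6 had 83.4, 99.1 and 85.4 CPM in HepKO, against 127, 115 and 126 CPM in WT (log2 fold change -0.46 ± 0.10, adjusted p = 0.00999). That difference is smaller than the shift between scalings, and with library totals it was 0.05. Cyp2j9 had 6.54, 9.12 and 7.93 CPM in HepKO, against 20.2, 12.9 and 11.6 CPM in WT (log2 fold change -0.92 ± 0.23, adjusted p = 0.0164), and did not pass with library totals (adjusted p = 0.176).

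The Cyp3a genes of chromosome 5 encode the main steroid and drug hydroxylases induced through PXR. Cyp3a11 (145854426 to 145879964, minus strand), the most abundant, had 566, 424 and 469 CPM in HepKO, against 2498, 3059 and 3096 CPM in WT. It fell 5.93-fold (log2 fold change -2.57 ± 0.16, adjusted p = 9.83e-05), the smallest p of all members. Cyp3a25 had 380, 299 and 180 CPM in HepKO, against 819, 900 and 910 CPM in WT (log2 fold change -1.61 ± 0.25, adjusted p = 0.00194). Both lay below WT in every HepKO library.

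Cyp3a13, the outlying member of the subfamily, had 251, 231 and 192 CPM in HepKO and 231, 245 and 287 CPM in WT (log2 fold change -0.18 ± 0.14, adjusted p = 0.333). Cyp3a59 did not pass with all libraries (adjusted p = 0.342) and was called lower without HepKO replicate 1 (log2 fold change -1.61, adjusted p = 0.00125). Cyp3a44 and Cyp3a57, both at most 2.05 CPM in any library, did not pass. Cyp3a41a had 501, 0 and 1 counts in HepKO and 0, 6 and 0 in WT, and Cyp3a16 had 293, 0 and 0 in HepKO and 2, 1 and 5 in WT. Nearly all counts of these last 2 came from HepKO replicate 1, and 95.3% of the 75-base windows of Cyp3a41a occur in another gene, mostly its copy Cyp3a41b.

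**Figure D3:**
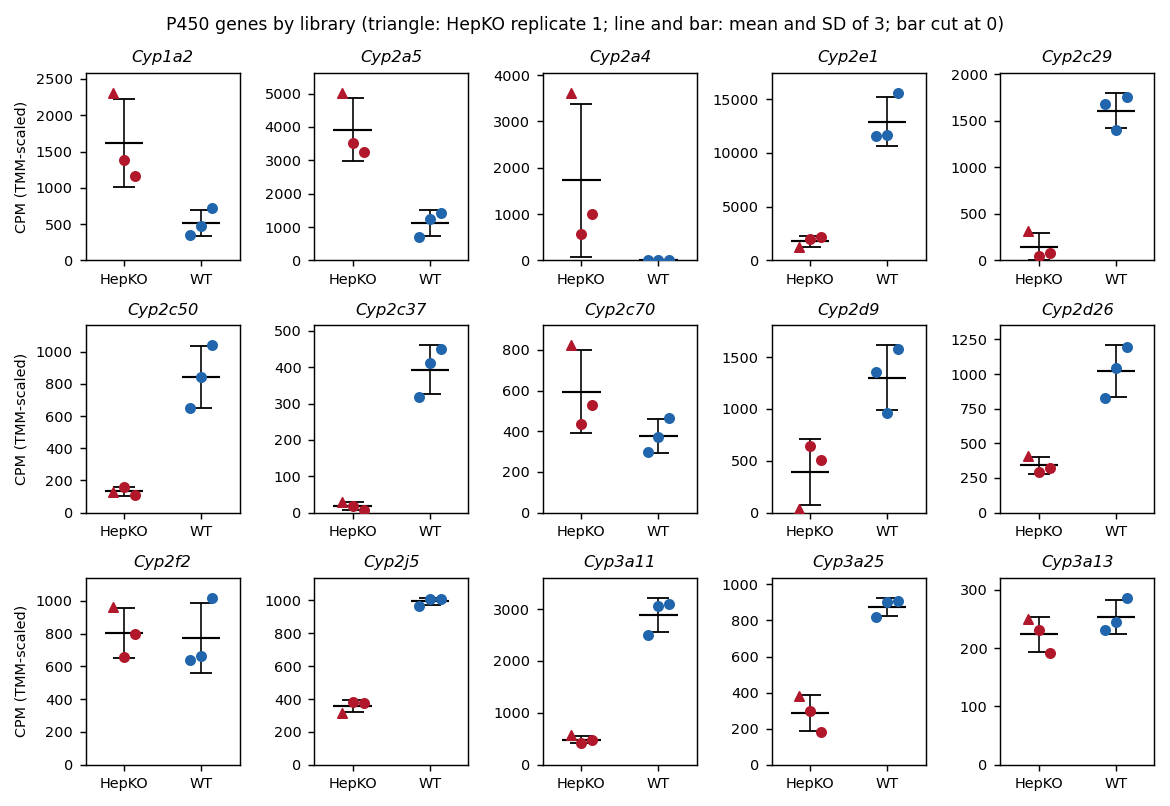
TMM-scaled CPM of 15 P450 genes in each HepKO (left in each panel) and WT (right) library, with the mean and SD of 3 libraries; each axis starts at 0 and triangles mark HepKO replicate 1. Cyp2e1 lies between 1203 and 2202 CPM in HepKO and between 11522 and 15541 CPM in WT, while Cyp2f2 and Cyp3a13 overlap between the groups.

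The members known to differ between the sexes in mouse liver were compared as a group, since HepKO replicate 1 differed from all other libraries in sex-linked genes. Of 10 female-predominant P450 genes listed, 7 were tested, Cyp2a4 rose and 6 did not pass. HepKO replicate 1 had the highest level of all 6 libraries for Cyp2a4, Cyp2b9, Cyp2b13, Cyp2c40, Cyp3a16, Cyp3a41a, Cyp3a41b and Cyp3a44, but not for Cyp2b10 and Cyp2c69. Without it, 4 of the 7 were called lower (Cyp2b9, Cyp2b10, Cyp2b13 and Cyp2c69), and Cyp2a4 alone was higher. Over all genes 17.5% were lower and 16.3% higher without that library. The male-predominant Cyp2d9 was lowest in HepKO replicate 1. Among 10 regulators of sex-dependent liver expression, 1 rose and 1 fell, against 19.5% higher and 18.7% lower of all genes. The growth hormone receptor Ghr had 215, 296 and 303 CPM in HepKO, against 812, 781 and 977 CPM in WT (log2 fold change -1.66 ± 0.17, adjusted p = 3.78e-04), and its feedback inhibitor Socs2 rose (log2 fold change 1.23 ± 0.34, adjusted p = 0.0244). With library totals 4 of the 10 regulators were higher, against 46.4% of all genes. The part of sex in these results was not tested.

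**Figure D4:**
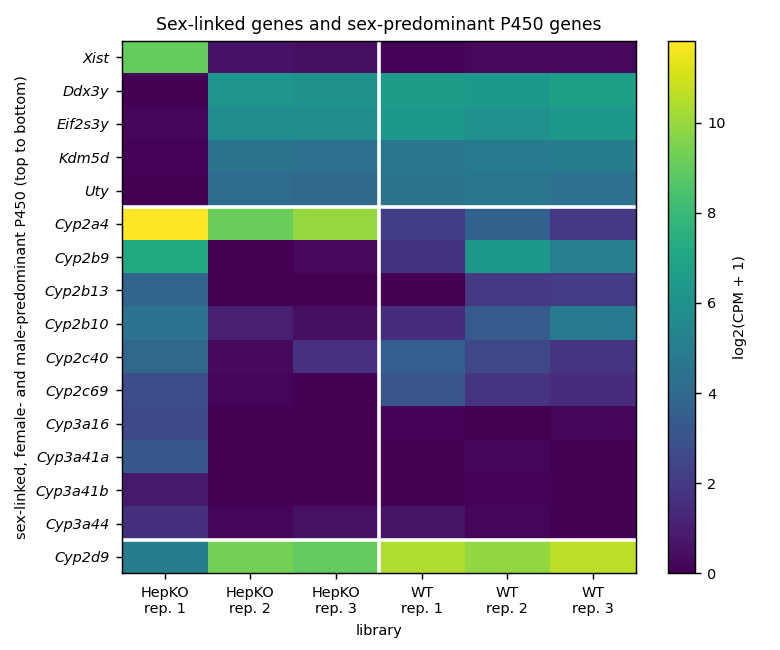
Sex-linked genes (top block), female-predominant P450 genes (middle block) and the male-predominant Cyp2d9 (bottom row) in each library, coloured by log2 of CPM plus 1, with HepKO on the left and WT on the right. HepKO replicate 1 is the only library with high Xist and near-zero Y-linked genes, and Cyp2a4 is also high in HepKO replicates 2 and 3, at 572 and 998 CPM.

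Members known for central-vein expression were compared with the zonation genes outside P450. Of 8 pericentral P450 genes, Cyp1a2 and Cyp2a5 rose and Cyp2c29, Cyp2c37, Cyp2c50, Cyp2c54, Cyp2e1 and Cyp3a11 fell, with a median of -2.76, against 0.01 over all genes. The calls were also 2 higher and 6 lower without HepKO replicate 1 and with library totals. Over all genes 16.3% were higher and 17.5% lower without that library, and 46.4% and 5.84% with library totals. Of 9 pericentral genes outside P450, 4 fell and 3 rose, of which Axin2 was not called without HepKO replicate 1. Over all genes 18.7% fell and 19.5% rose with all libraries under TMM. Glul, glutamine synthetase, fell (log2 fold change -1.15 ± 0.15, adjusted p = 0.00107) and Oat, an ornithine aminotransferase, fell (-3.03 ± 0.26, adjusted p = 2.13e-04), while Slc1a4, an amino acid transporter, rose (3.56 ± 0.31, adjusted p = 2.18e-04). Of 9 periportal genes outside P450, 6 fell and 2 rose. Cdh1, a cell adhesion cadherin, had the smallest p and rose (3.28 ± 0.29, adjusted p = 2.36e-04). Ass1, an enzyme of the urea cycle, fell (-1.39 ± 0.13, adjusted p = 2.79e-04).

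Short sequence motifs were searched on both strands of the RefSeq promoters (GRCm38.p6) of 41 members, 43 windows of 300 bases, against 32851 windows of all genes. The AhR core GCGTG was found in 6 member windows (14.0%, against 32.4% of all), the CAR and PXR half-site AGTTCA in 6 (14.0%, against 14.0%), the antioxidant core TGACNNNGC in 1 (2.33%, against 12.4%) and the STAT5 core TTCNNNGAA in none (against 8.30%). The motif CAAAGTCCA, preferred by the hepatocyte receptor HNF4, was found in 8 member windows (18.6%, against 0.475% of all). These were the windows of Cyp2c40, Cyp2c67, Cyp2c68, Cyp2c69, Cyp2c70, Cyp3a11, Cyp3a16 and Cyp3a41a, several of which are copies of each other. Of these 8, Cyp3a16 and Cyp3a41a were not tested. Among the other 6 only Cyp3a11 was called, lower, against 18.7% of all genes. Without HepKO replicate 1, 3 more (Cyp2c67, Cyp2c68 and Cyp2c69) were called lower, against 17.5% of all genes. The matches of 5 of these genes and the Cyp1a1 match to the AhR core are shown with their flanks, because they hold the motif by which the windows differ most from other promoters and the motif of the best known Cyp1a1 regulator. Capitals mark the motif or its reverse complement, and all stretches read toward the gene.
Cyp2c67: atcattgagaCAAAGTCCAtttggaagca
Cyp2c68: atcattgaaaCAAAGTCCAattggaagag
Cyp2c70: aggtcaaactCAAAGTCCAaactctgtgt
Cyp3a11: aagagagtacCAAAGTCCAgtgatgcaaa
Cyp3a16: aagagacgacCAAAGTCCAggtgatgcag
Cyp1a1: tcagataaggagGCGTGgccaacagacac
The first letter of the capitals lies 125 bases before the start in Cyp2c67 (chr19:39649149-39649177, minus strand), 77 in Cyp2c68 (chr19:39741160-39741188, minus) and 64 in Cyp2c70 (chr19:40187332-40187360, minus). It lies 109 before in Cyp3a11 (chr5:145879945-145879973, minus), 99 in Cyp3a16 (chr5:145469804-145469832, minus) and 54 in Cyp1a1 (chr9:57697547-57697575, plus). The Cyp1a2 window held no GCGTG. A match is a run of letters only.

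The partners of the P450 enzymes were mostly lower in HepKO under TMM. Of 5 listed electron donors and other P450 partners 4 fell and none rose, against 18.7% lower and 19.5% higher of all genes. The partner Pgrmc1 was the 1 not called (log2 fold change 0.16 ± 0.14). The smallest p was that of Cyb5b, a cytochrome b5 of the outer mitochondrial membrane (log2 fold change -0.74 ± 0.12, adjusted p = 0.00214). Por, the reductase that serves all these enzymes, had 319, 174 and 148 CPM in HepKO, against 469, 574 and 819 CPM in WT (log2 fold change -1.54 ± 0.32, adjusted p = 0.0071). Of 8 enzymes of haem synthesis 6 fell, with the smallest p for Urod, uroporphyrinogen decarboxylase (log2 fold change -0.57 ± 0.09, adjusted p = 0.00219). Alas1, the rate-limiting enzyme, had 319, 178 and 204 CPM in HepKO, against 754, 728 and 1874 CPM in WT (log2 fold change -2.26 ± 0.41, adjusted p = 0.00382). With library totals only Por and Alas1 were lower in these lists, and Pgrmc1 was higher, against 5.84% lower and 46.4% higher of all genes.

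Of 14 receptors and partners tested, 10 fell and none rose, with a median of -0.81, against 0.01 over all genes. The CAR gene Nr1i3 had 110, 69.2 and 71.9 CPM in HepKO, against 254, 350 and 451 CPM in WT (log2 fold change -2.07 ± 0.25, adjusted p = 8.01e-04). The PXR gene Nr1i2 fell by less (log2 fold change -1.21 ± 0.15, adjusted p = 8.32e-04), and Ppara, the receptor for fatty acids, fell (log2 fold change -1.75 ± 0.15, adjusted p = 1.94e-04). Ahr had 59.9, 65.9 and 52.3 CPM in HepKO and 39.8, 59.6 and 122.8 CPM in WT, and its partner Arnt had 48.3, 51.1 and 56.6 CPM in HepKO and 46.9, 56.2 and 53.5 CPM in WT, and neither passed. With library totals 5 of the 14 fell (among them Nr1i3, Nr1i2 and Ppara) and Arnt was higher. Of 8 CAR or PXR targets outside P450, 2 rose and 1 fell. With library totals 5 were higher and none lower, and without HepKO replicate 1, 2 were higher and 2 lower. Over all genes 19.5% rose and 18.7% fell under TMM with all libraries, against 46.4% and 5.84% with library totals. Without HepKO replicate 1 these shares were 16.3% and 17.5%. The CAR or PXR target that fell with all libraries was Sult1d1, a sulfotransferase (log2 fold change -0.82 ± 0.14, adjusted p = 0.00278). The glutathione transferase Gstm3 rose (log2 fold change 3.65 ± 0.75, adjusted p = 0.0068). Of 4 AhR targets outside P450 tested, Nqo1, a quinone reductase also controlled by NRF2, rose (3.24 ± 0.39, adjusted p = 7.75e-04), and Ugt1a6a and Ugt1a6b, which share exons, fell. With library totals Ugt1a6a was not called and Tiparp was higher.

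**Figure D5:**
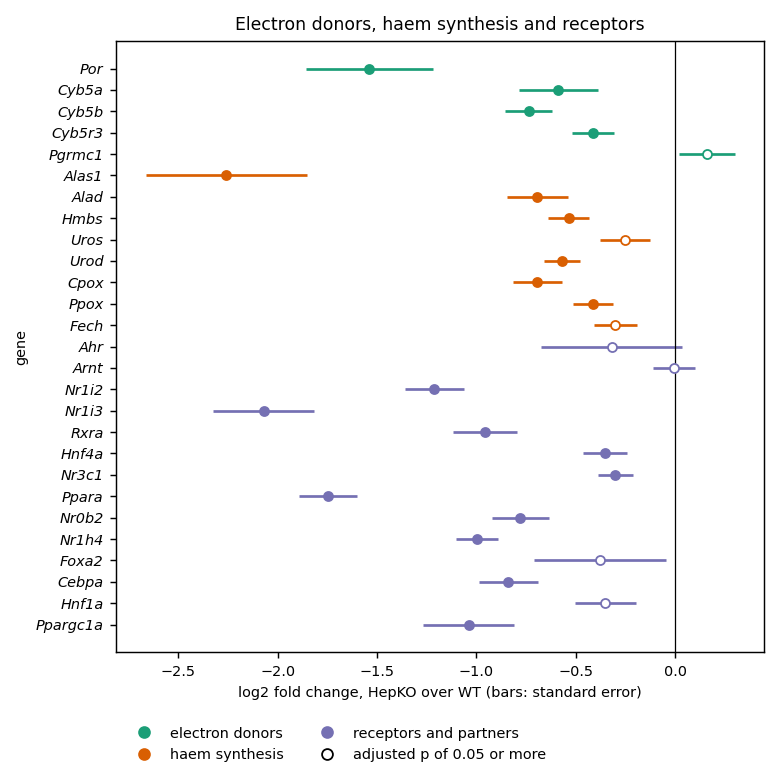
Log2 fold changes, HepKO over WT, of electron donors and the P450 partner Pgrmc1, haem synthesis enzymes and receptors with their partners, with standard errors. Filled points passed an adjusted p of 0.05. Alas1 lies lowest at -2.26 and Nr1i3 at -2.07; with library totals the median of all genes shifts by 0.52 and most haem synthesis genes were not called.

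Markers of the cell types in the tissue moved with the genotype too. All 7 hepatocyte markers fell under TMM on all 6 libraries, with the smallest p for Hpd (log2 fold change -1.83 ± 0.18). Their summed level was 39075 to 46424 CPM in HepKO and 92526 to 113795 CPM in WT. Most of that sum was Alb, with 29488 to 36371 CPM in HepKO and 68825 to 90310 CPM in WT. Among markers of other cells, 4 of 6 cholangiocyte genes rose (summed 148 to 561 CPM in HepKO and 44.0 to 61.9 CPM in WT). Most of the cholangiocyte sum was Spp1, with 134 to 515 CPM in HepKO and 35.2 to 54.4 CPM in WT. The keratins Krt19 and Krt7 did not pass (adjusted p = 0.236 and 0.598, edgeR). Of macrophage genes 5 of 6 rose (339 to 631 CPM in HepKO and 137 to 260 CPM in WT). Of stellate genes 4 of 7 rose (560 to 666 CPM in HepKO and 224 to 328 CPM in WT), as did 3 of 5 lymphocyte and neutrophil genes (36.5 to 58.4 CPM in HepKO and 8.72 to 19.2 CPM in WT), while none of 5 endothelial genes passed (124 to 158 CPM in HepKO and 116 to 140 CPM in WT). The smallest p was that of Spp1 among cholangiocyte genes (log2 fold change 2.71 ± 0.47), Cd68 among macrophage genes (2.47 ± 0.27), Col3a1 among stellate genes (2.55 ± 0.25), Ptprc among lymphocyte and neutrophil genes (1.98 ± 0.31) and Pecam1 among endothelial genes (0.50 ± 0.20, adjusted p = 0.083). Apoa1 was not called lower without HepKO replicate 1 (adjusted p = 0.0759) or with library totals (adjusted p = 0.888), nor was the macrophage gene Vsig4 called higher without HepKO replicate 1 (adjusted p = 0.0730). With library totals 7 of 7 stellate, 6 of 6 macrophage and 3 of 5 endothelial genes were called higher. Over all genes 19.5% were higher and 18.7% lower under TMM, and 46.4% were higher with library totals. Ly6g, a neutrophil marker, was at 0 in 5 libraries. In bulk tissue, fewer hepatocytes and less RNA of the hepatocyte marker genes per hepatocyte cannot be told apart. The part of tissue make-up in the P450 changes was not tested.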

How the data were processed

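The authors deposited unnormalised read counts for each gene. The submitters' processing notes name STAR 2.7.11a, featureCounts (Subread 2.0.0), edgeR 3.40.2 and bcl2fastq, and the mm10 build. The sources used here give neither the annotation release nor the strand setting, so reads of overlapping or near-identical genes may have been split or dropped. Of 56350 gene IDs, 55480 matched GENCODE M21 without version. The members and gene lists were chosen with earlier results of these data known.

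Counts were filtered with filterByExpr by group, scaled with TMM and tested on all 6 libraries with edgeR 4.0.16 (R 4.3.3; quasi-likelihood, 2-sided), with no covariate. Errors after ± are SE on log2 fold changes and SD (3 libraries) on other values. The call needed an adjusted p (Benjamini-Hochberg, over 16051 genes) under 0.05. The method was also run on simulated counts with the same spread for all genes and no library that stood apart. That run does not show how it behaves with a library like HepKO replicate 1 or with the shift between scalings seen here. A chi-square test over genes gave 24.2 to 117 per degree of freedom between replicates, far above sampling noise, and each library counted as 1 sample.

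Values per library are given for the most abundant member of each subfamily, for the called members of highest and lowest fold in subfamilies with at least 3 members at a mean of 5 CPM, and for the 8 most abundant members. Other members given per library were chosen after their values were seen. Of each list outside P450 the gene of smallest p is named, and the others named were chosen after their values were seen.

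Alternatives were DESeq2 1.42.0, limma-voom (limma 3.58.1), RLE factors, library totals, a filter of 1 CPM in 3 libraries, no filter, the replicate number as a block, and leaving out each library. The list counts and Cyp2b13 bound without HepKO replicate 1, the list counts under other scalings and the family genes outside the rule were added after seeing the data. The floor of 3 counts covers counting error only. Motif and identity values describe sequence from RefSeq (GRCm38.p6) and GENCODE M21.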

Additional observations from a re-analysis of the deposited data

How the results depend on the processing

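The counts of called members varied with the library left out, the filter, the scaling and the tool. The number of members that rose was 5, and between 4 and 6 when 1 library was left out, 6 with DESeq2 and 8 with no filter. The number that fell was 15, and between 15 and 27 when 1 library was left out, with 27 only without HepKO replicate 1. It was 18 with DESeq2 and 21 with no filter. Over all genes, 13.9% to 16.7% were higher and 12.2% to 17.5% lower when 1 library was left out. The all-gene shares were 21.6% higher and 19.3% lower with DESeq2, and 10.7% and 10.3% with no filter. The log2 ratio of the summed CPM was -0.97, between -1.18 and -0.82 when 1 library was left out, and -0.46 with library totals. Over all genes, 51.0% of calls were higher under TMM and 88.8% with library totals, with 937 genes lower against 3006.

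Direction turned for some members. With library totals the log2 fold change was 0.47 for Cyp2a12, 0.074 for Cyp2c23, 0.43 for Cyp2c40, 0.16 for Cyp2d11, 0.053 for Cyp2j6, 0.41 for Cyp2r1 and 0.33 for Cyp3a13. With limma-voom it was -0.32 for Cyp2a22, -4.11 for Cyp2b9, -1.83 for Cyp2b13 and -0.31 for Cyp2c55. No pairing of the samples by replicate number was visible (correlations of deviations between same-numbered libraries of -0.15, -0.12 and 0.04). Not every library correlated best with its own number. With 3 libraries per group, of which HepKO replicate 1 stood apart, this check could miss a pairing. With the replicate block 4 members rose and 15 fell, against 16% higher and 15.6% lower of all genes. Cyp1a1 then did not pass (adjusted p = 0.0716). The log2 fold change with the block was -0.54 for Cyp2a22, -4.95 for Cyp2b9, -2.998 for Cyp2b13 and -0.51 for Cyp2c55. Leaving out 1 library gave ranges that crossed 0: -0.39 to 0.14 for Cyp2a12, -1.41 to 0.43 for Cyp2a22, -8.57 to 1.49 for Cyp2b9, -4.09 to 0.46 for Cyp2b10, -9.24 to 1.71 for Cyp2b13, -2.28 to 0.60 for Cyp2c40, -1.34 to 0.42 for Cyp2c55, -1.07 to 0.11 for Cyp2d11, -0.10 to 0.33 for Cyp2f2, -0.10 to 0.75 for Cyp2g1 and -0.24 to 0.0059 for Cyp2r1. The fitted value of Cyp2b13 without HepKO replicate 1 depends on the prior count. The cause of these shifts was not tested. Cyp2d11, Cyp2s1 and Cyp3a57 stayed under 1 CPM in every library, and no difference was detectable for them at this depth.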

Other observations

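Family genes outside the rule were also read. Of 21 such genes with counts, pseudogenes or protein-coding genes under the minimum, 7 were tested, 4 fell and none rose. Over all genes 18.7% fell and 19.5% rose. Cyp2d37-ps had 29.2, 49.5 and 57.3 CPM in HepKO, against 106, 153 and 163 CPM in WT (log2 fold change -1.63 ± 0.26, adjusted p = 0.00232, edgeR). Cyp2d36-ps (-1.82 ± 0.29) and Cyp2d38-ps (-1.65 ± 0.27) fell as well, and all 3 were also called lower without HepKO replicate 1. Cyp2c53-ps had 1, 0 and 0 counts in HepKO, against 19, 15 and 55 counts in WT (adjusted p = 0.00228). Reads of pseudogenes and their parent genes may have been exchanged. Cyp3a41b had 47, 0 and 0 counts in HepKO and 0, 3 and 1 in WT, and Cyp3a63-ps had 27, 0 and 0 in HepKO and 0, 2 and 1 in WT, so HepKO replicate 1 held nearly all counts of both.

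Sex-predominant liver genes outside P450 were read as well. Of 5 tested genes known as higher in females, Prom1 rose and Acot3 fell, and of 7 known as higher in males, Selenbp2 rose and Susd4 fell. Over all genes 19.5% rose and 18.7% fell. Without HepKO replicate 1, Elovl3, a male-predominant fatty acid elongase, was called lower as well (log2 fold change -2.19, adjusted p = 0.00225). Mup20, a male-predominant urinary protein, had 109, 3527 and 3121 CPM in HepKO, against 2645, 1406 and 2208 CPM in WT, and did not pass (adjusted p = 0.938).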
